A study of Mus musculus with 6 samples.

Results

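The miR-29 family was followed here in hippocampal small RNA libraries of mice with and without inactivation of Dicer1. Its members were all features of the count files whose name starts with miR-29a, miR-29b or miR-29c, at every locus and for both arms of each hairpin. They were 8 of the 2035 mature miRNA features and of the 109108 features in all, and stand for 7 distinct mature miRNAs, since miR-29b-3p is listed at 2 loci.

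Small RNA was sequenced in 6 libraries of total hippocampal RNA from male C57BL/6 mice aged 3 months. Every mouse, controls included, was Dicer1 flox/flox and was given tamoxifen (TMX), and tissue was taken 3 weeks later. The 3 Dicer1-ifKO libraries came from mice that also carried CaMKIIa-creERT2, a recombinase that tamoxifen activates in excitatory forebrain neurons, and the 3 WT libraries from mice without it. Each library pooled 3 mice, so 9 mice of each genotype entered, fewer than the design text of the series gives, and p-values measure the spread between pools. Interneurons, glia and vessel cells are not targeted by this transgene and remain in the tissue. The labels state that recombination was tested by qRT-PCR. The Dicer1 feature spans the whole gene and held 45, 33 and 47 counts in the WT and 37, 32 and 35 in the Dicer1-ifKO libraries, which are fragments and check no genotype label. Values of a genotype are always given in the order of replicates 1, 2 and 3.

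Dicer cuts the loop from a precursor hairpin and leaves a duplex of the 5p and 3p arms, of which usually 1 strand is loaded into an Argonaute protein and the other is degraded. In the miR-29 family the loaded strand is the 3p arm. The family is known to increase in the brain after birth, is enriched in astrocytes and also present in mature neurons, where it restrains pro-apoptotic BH3-only genes, and it targets DNA methyltransferases and collagens in many tissues. miR-29b carries a 3′ terminal AGUGUU motif known for directing it to the nucleus.

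The mature sequences are shown first, because the family is defined by the first bases of its 3p arms while its 5p arms differ. They are from RefSeq's miRNA table (GRCm38), which held all 8 features, and capitals mark the seed, bases 2 to 8 from the 5′ end, which pairs with target mRNAs.
miR-29a-3p: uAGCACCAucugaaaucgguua
miR-29b-3p: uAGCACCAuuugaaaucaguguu
miR-29c-3p: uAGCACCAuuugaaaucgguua
miR-29a-5p: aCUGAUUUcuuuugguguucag
miR-29b-1-5p: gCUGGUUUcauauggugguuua
miR-29b-2-5p: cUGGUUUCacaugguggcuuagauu
miR-29c-5p: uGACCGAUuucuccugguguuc
The 3p arms shared the seed AGCACCA, which no other of the 1679 mature miRNA names in the table had. Counted from the 5′ end, miR-29c-3p differs from miR-29a-3p by C10U alone, and 21 of 22 bases are identical. miR-29b-3p differs from miR-29c-3p by G18A, U21G and A22U over the same 22 bases. The 5p arms have 4 different seeds, and that of miR-29b-2-5p is shared with miR-6338. How many mismatches the authors' alignment allowed is not given in the sources used here, so reads of miR-29a-3p and miR-29c-3p that carry an error at the differing base could not be followed.

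The 4 hairpins lie in 2 clusters, each with a miR-29b copy. On chromosome 6, minus strand (GRCm38), Mir29b-1 lies 275 bases upstream of Mir29a. miR-29a-3p is at chr6:31062673-31062694, miR-29a-5p at chr6:31062711-31062732, miR-29b-3p at chr6:31063025-31063047 and miR-29b-1-5p at chr6:31063067-31063088. GENCODE M21 has no protein-coding gene over them. On chromosome 1, plus strand, Mir29b-2 lies 426 bases upstream of Mir29c. miR-29b-2-5p is at chr1:195037050-195037074, miR-29b-3p at chr1:195037091-195037113, miR-29c-5p at chr1:195037562-195037583 and miR-29c-3p at chr1:195037600-195037621. GENCODE M21 places this cluster in an exon of the long noncoding RNA A330023F24Rik and, on the opposite strand, over the untranslated part of an exon of Cd46. In the count files, 0 other features overlapped any of the 8, so no overlapping row shares their counts. Those files list no A330023F24Rik feature, and their Cd46 features start at chr1:195041285, outside the cluster. Fragments of these 2 transcripts over the cluster would thus have no row of their own. Whether such fragments entered the miR-29 counts could not be seen.

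A library had 2318205 to 3179363 counts in miRNA features, of which 62945 to 76103 were of the family. This was 2.54%, 2.39% and 2.39% of the miRNA counts for the WT libraries and 2.72%, 2.50% and 2.74% for the Dicer1-ifKO libraries. These shares overlapped between the genotypes, as did the shares of all feature counts, which were 0.092% to 0.112% in WT and 0.088% to 0.114% in Dicer1-ifKO. Levels are given as CPM, the TMM-scaled counts relative to the total over the tested features. A read can be counted in several features, so a CPM is not relative to reads. The mature arms are 22 to 25 bases long, so their levels were compared without a length correction. How evenly different sequences were captured in the libraries was not measured. Ranks, shares and ratios between different arms are therefore those of counts, not of molecules.

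By counts, the family was dominated by 1 arm of 1 hairpin. miR-29a-3p made up 92.2% to 93.8% of the family's counts in WT and 90.7% to 93.4% in Dicer1-ifKO, and was the 10th most abundant of the 1900 miRNA names by mean CPM, with loci summed. miR-29c-3p ranked 66 and miR-29b-3p ranked 162. The 5p arms ranked between 373 and 651 and together held 0.139% to 0.175% of the family's counts in WT and 0.104% to 0.167% in Dicer1-ifKO.

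**Figure D1:**
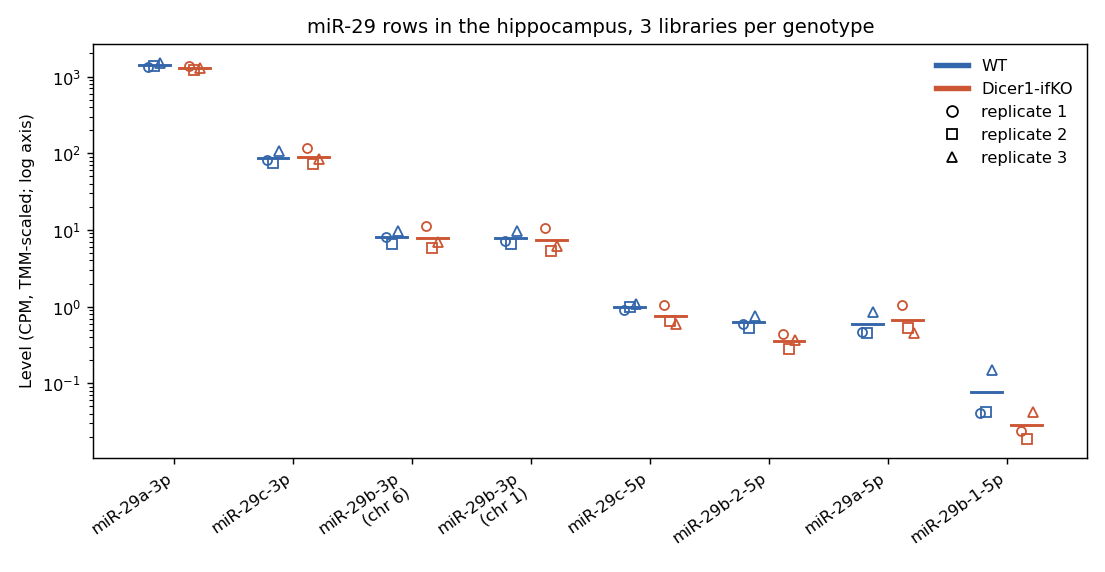
Level of the 8 miR-29 rows on a log axis, in CPM after TMM scaling. Blue symbols are WT and orange symbols Dicer1-ifKO libraries, symbol shapes are replicates, and horizontal lines are means of 3. The 3p arms run from 1394 CPM for miR-29a-3p to about 8 CPM for each miR-29b-3p row in WT, and the 5p arms lie at or below 1.10 CPM in every library.

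In WT the order of levels was miR-29a-3p, miR-29c-3p, the miR-29b-3p loci, miR-29c-5p, miR-29b-2-5p, miR-29a-5p and miR-29b-1-5p. Mean miR-29a-3p was 16.0 times miR-29c-3p. miR-29c-3p came to 528%, 569% and 547% of miR-29b-3p with its loci summed, since reads of this arm cannot be assigned to a locus. The ranges of the 2 miR-29b-3p rows overlapped, as did those of miR-29b-2-5p and miR-29a-5p, while all other neighbours in the order were separate in WT. In Dicer1-ifKO the order was the same for the 3p arms, miR-29a-5p stood above miR-29b-2-5p without overlap, and miR-29c-5p and miR-29a-5p overlapped. miR-29b-3p from both clusters together, at 15.9 ± 3.20 CPM in WT (SD, n = 3), was far below miR-29a-3p, which comes from the chromosome 6 cluster alone.

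None of the family's 7 tested features passed the test between genotypes. The 7 hold both rows of miR-29b-3p, which are 1 miRNA and not separate measurements, and leave out miR-29b-1-5p. In edgeR's quasi-likelihood test with Benjamini-Hochberg adjustment over 6539 features, 0 were lower and 0 higher at an adjusted p of 0.05, where 6.59% of the 546 tested miRNA rows were lower (36 rows) and 0% higher. DESeq2 also called 0 of the 7, against 6.41% of the miRNA rows lower. At an unadjusted p of 0.05, 1 of the 7 was lower (miR-29b-2-5p), against 31.1% of the miRNA rows lower and 2.01% higher, and 6.47% and 1.35% of all tested features. The median log2 change of the 7 was -0.09, against -0.24 for all tested miRNA rows and -0.05 for all tested features. The other miRNA rows with a GC content of at most 41%, where most of the family lies, had a median of -0.09 (121 rows), and those of higher GC content one of -0.32 (344 rows). With the miRNA rows setting the scaling, those medians of miRNA rows and of all features moved to 0.0013 and 0.19, and 2 rather than 5 of the 7 lay below 0. A fit restricted to miRNA rows called 36 of them lower and 11 higher, and 0 of these were of the family. In whole tissue, fewer cells of a type and less RNA per cell cannot be told apart.

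**Figure D2:**
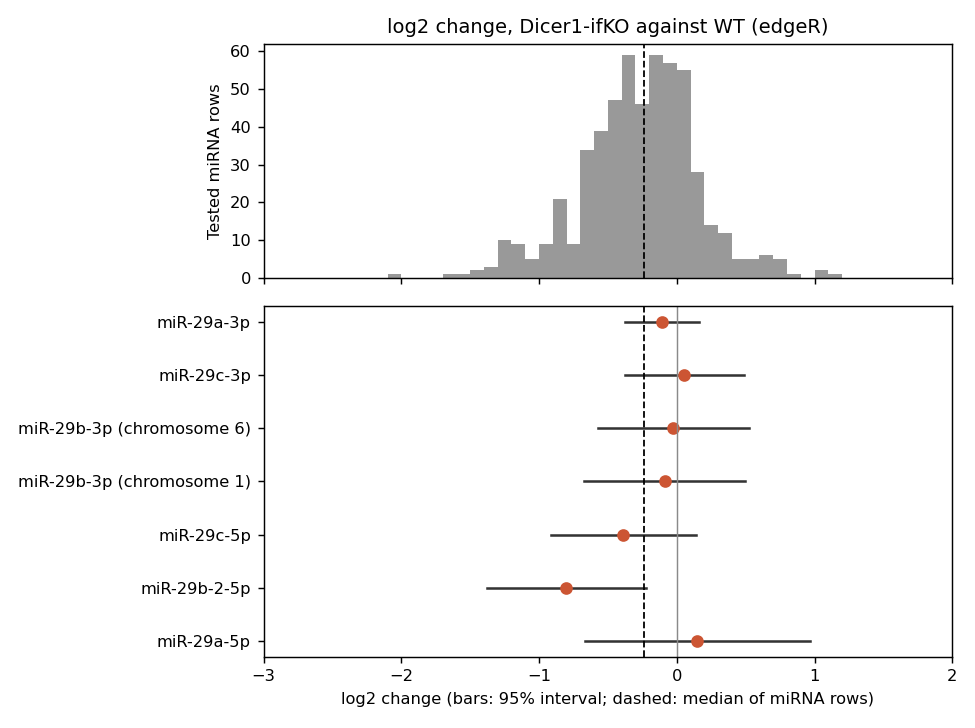
Upper panel, number of tested miRNA rows by log2 change of Dicer1-ifKO against WT (546 rows). Lower panel, log2 change of each tested miR-29 row with its 95% interval, unadjusted. The dashed line is the median of the miRNA rows, -0.24; the 3p arms lie right of it, between -0.11 and 0.05, and miR-29b-2-5p lies left of it at -0.80.

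miR-29a-3p, the most abundant member of the family by counts, did not pass the test. The WT libraries had 64307, 64763 and 70138 counts of it, or 1314, 1355 and 1511 CPM. The Dicer1-ifKO libraries had 57121, 63916 and 60850, or 1378, 1202 and 1297 CPM. WT replicate 3 was the highest and Dicer1-ifKO replicate 2 the lowest, and the groups overlapped. Mean levels (± SD, n = 3 each) were 1394 ± 104 CPM for WT against 1292 ± 88.0 CPM for Dicer1-ifKO, a log2 change of -0.11 ± 0.12 (SE; edgeR adjusted p = 0.94). The 95% interval of the change, -0.38 to 0.16, spans levels of 77.0% to 112% of WT. When TMM factors came from miRNA rows, the log2 change was 0.13 (edgeR adjusted p = 0.78). Without WT replicate 3 it was -0.0011.

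Set against the other miRNAs of the same library, which needs no scaling, miR-29a-3p also gave no difference that passed. For WT it came to 2.42%, 2.30% and 2.26% of the counts of all miRNA rows outside the family, and for Dicer1-ifKO to 2.53%, 2.39% and 2.62%. Only Dicer1-ifKO replicate 2 lay within the WT range. The log2 ratio was 0.11 higher in Dicer1-ifKO (two-sided exact permutation p = 0.2, adjusted p = 0.47 over the 7 ratios tested here). With 3 against 3 libraries such a test cannot give a p below 0.1. The sum of the other miRNAs is no fixed reference. In the main fit the median log2 change of the tested miRNA rows was -0.24, and that of miR-29a-3p was -0.11.

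miR-29c-3p, which differs from miR-29a-3p by the 1 base named above, did not pass either. The WT libraries had 3958, 3565 and 4931 counts of it and the Dicer1-ifKO libraries 4815, 3814 and 3933. Dicer1-ifKO replicate 1, at 116 CPM, and WT replicate 3, at 106 CPM, stood above the other 4 libraries, which lay between 71.7 and 83.8 CPM. Mean levels (± SD, n = 3 each) were 87.2 ± 16.8 CPM for WT against 90.6 ± 23.0 CPM for Dicer1-ifKO (log2 0.05 ± 0.20 SE, 95% interval -0.38 to 0.49, edgeR adjusted p = 0.99). The sign rested on single libraries: the log2 change was -0.0025 without WT replicate 1, -0.04 without WT replicate 2 and -0.17 without Dicer1-ifKO replicate 1, and 0.27 without WT replicate 3 and 0.22 without Dicer1-ifKO replicate 2.

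miR-29b-3p, made from both clusters, cannot be assigned to a locus, because the mature arm is identical at the 2 places. The chromosome 6 row had 398, 314 and 446 counts for WT and 466, 307 and 324 for Dicer1-ifKO. The chromosome 1 row had 351, 313 and 455 for WT and 438, 287 and 291 for Dicer1-ifKO. The chromosome 6 row took 49.5% to 53.1% of the counts of both rows in the 6 libraries, close to an even division of reads. Dicer1-ifKO replicate 1 was again the highest library and WT replicate 3 the next, and the genotypes overlapped. Summed over loci, mean levels (± SD, n = 3 each) were 15.9 ± 3.20 CPM for WT against 15.4 ± 5.66 CPM for Dicer1-ifKO (log2 -0.06, edgeR adjusted p = 0.99). As separate rows the log2 changes were -0.03 ± 0.25 (SE) for chromosome 6 and -0.09 ± 0.26 (SE) for chromosome 1. Without WT replicate 3, Dicer1-ifKO replicate 2 or Dicer1-ifKO replicate 3 they turned above 0, to 0.16, 0.19 and 0.06 for chromosome 6 and 0.15, 0.12 and 0.02 for chromosome 1. Without Dicer1-ifKO replicate 1 they were -0.36 and -0.44.

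No ratio between the 3p arms passed the exact permutation test over libraries, and all 3 overlapped between genotypes. miR-29c-3p came to 6.15%, 5.50% and 7.03% of miR-29a-3p for WT and to 8.43%, 5.97% and 6.46% for Dicer1-ifKO (two-sided exact permutation p = 0.6, adjusted p = 0.70 over 7 ratios). miR-29b-3p, with loci summed, came to 1.16%, 0.97% and 1.28% of miR-29a-3p in WT and to 1.58%, 0.93% and 1.01% in Dicer1-ifKO (exact permutation p = 1, adjusted p = 1). Without Dicer1-ifKO replicate 1 the difference in the log2 ratio of miR-29b-3p to miR-29a-3p went from 0.01 to -0.22, and without WT replicate 2 to -0.10. The ratio of miR-29c-3p to miR-29b-3p had log2 values of 2.40, 2.51 and 2.45 in WT and 2.41, 2.68 and 2.68 in Dicer1-ifKO (exact permutation p = 0.3, adjusted p = 0.53). Its SD between libraries, 0.053 in WT and 0.15 in Dicer1-ifKO on the log2 scale, was the smallest of the 3, against 0.18 and 0.26 for miR-29c-3p to miR-29a-3p.

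**Figure D3:**
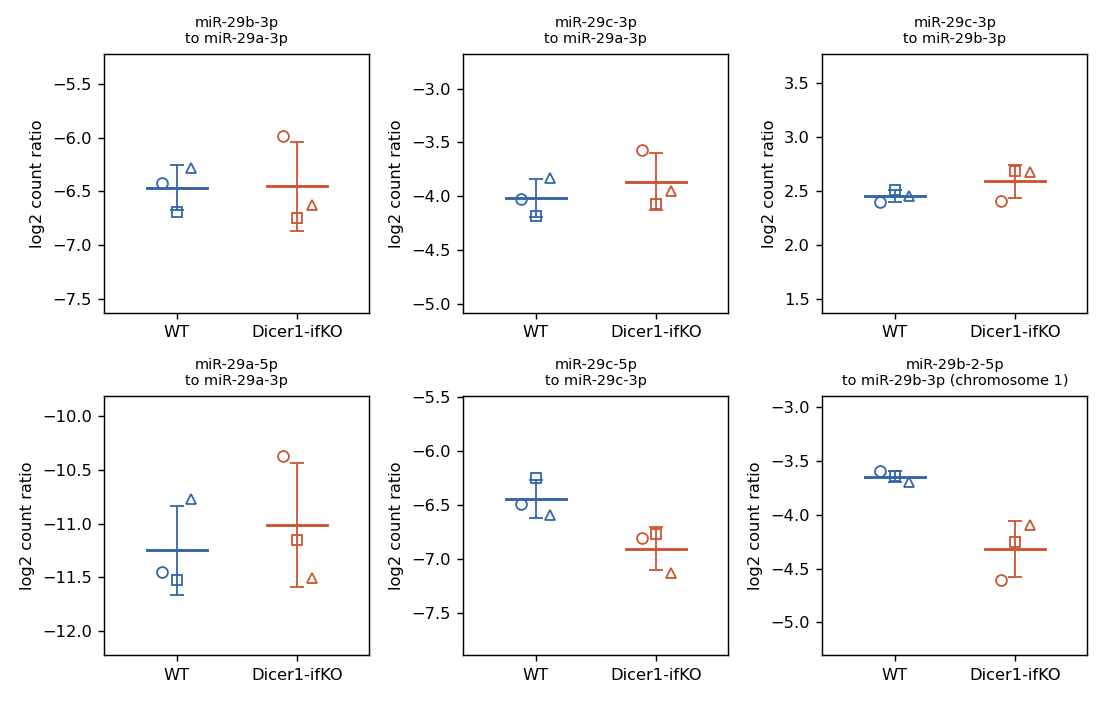
log2 count ratios within each library for pairs of 3p arms (top) and for the 5p over the 3p arm of a hairpin (bottom). Symbols are libraries (circle, square and triangle for replicates 1, 2 and 3), lines are means and bars SD of 3, and every panel spans the same number of log2 units. The ratios of miR-29c-5p and miR-29b-2-5p to their 3p arms are lower in all 3 Dicer1-ifKO than in all 3 WT libraries, and the other panels overlap.

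The 5p arms, the strands usually degraded, held few counts. Those of the chromosome 1 cluster had the lowest Dicer1-ifKO values relative to WT among the family's 7 tested rows. miR-29b-2-5p had 29, 25 and 35 counts for WT and 18, 15 and 17 for Dicer1-ifKO. In CPM these were 0.59, 0.52 and 0.75 against 0.43, 0.28 and 0.36, with no overlap. It was the 1 of 7 tested members with no overlap, where 33.9% of the tested miRNA rows were lower without overlap and 2.01% higher (9.27% and 3.73% of all tested features). Its log2 change of -0.80 ± 0.27 (SE) had an unadjusted 95% interval of -1.38 to -0.23 and did not pass (edgeR adjusted p = 0.29). Leaving out 1 library at a time gave log2 changes of -0.95 to -0.60, and the adjusted p ran from 0.15 to 0.92 over all alternatives with edgeR and DESeq2.

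miR-29c-5p, from the other hairpin of that cluster, held 44, 47 and 51 counts in WT and 43, 35 and 28 in Dicer1-ifKO. Dicer1-ifKO replicate 1, at 1.04 CPM, lay within the WT range of 0.90 to 1.10 CPM, and the other 2 Dicer1-ifKO libraries lay below it, at 0.66 and 0.60 CPM. The log2 change was -0.39 ± 0.24 (SE; edgeR adjusted p = 0.82). It was -0.66 without Dicer1-ifKO replicate 1, and nearer 0 without WT replicate 3 (-0.26), Dicer1-ifKO replicate 2 (-0.26) or Dicer1-ifKO replicate 3 (-0.24). When TMM factors came from miRNA rows it was -0.16.

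On chromosome 6, miR-29a-5p held 23, 22 and 40 counts in WT and 43, 28 and 21 in Dicer1-ifKO. Its groups overlapped, with WT replicate 3 and Dicer1-ifKO replicate 1 the highest, and the log2 change was 0.15 ± 0.37 (SE; edgeR adjusted p = 0.99). Leaving out Dicer1-ifKO replicate 1 gave -0.29 and leaving out WT replicate 1 or 2 gave -0.0080 and 0.0071. Leaving out WT replicate 3, Dicer1-ifKO replicate 2 or Dicer1-ifKO replicate 3 gave 0.55, 0.33 and 0.37. miR-29b-1-5p held 2, 2 and 7 counts in WT and 1, 1 and 2 in Dicer1-ifKO, too few to pass the count filter. Fitted without that filter, its log2 change was -1.32 ± 0.86 (SE; edgeR adjusted p = 0.87).

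Within hairpins, the 5p arm was read at a small part of the level of its 3p arm. miR-29b-2-5p came to 8.26%, 7.99% and 7.69% of the chromosome 1 row of miR-29b-3p for WT and to 4.11%, 5.23% and 5.84% for Dicer1-ifKO. That 3p row holds reads of both miR-29b hairpins, so this is not the arm balance of 1 hairpin. miR-29c-5p came to 1.11%, 1.32% and 1.03% of miR-29c-3p in WT and to 0.89%, 0.92% and 0.71% in Dicer1-ifKO. For both, all Dicer1-ifKO values lay below all WT values, by 0.67 and 0.46 on the log2 scale. Each had a two-sided exact permutation p of 0.1, the lowest that 3 against 3 libraries allow, and an adjusted p of 0.35 over the 7 ratios. Neither passed a threshold of 0.05. miR-29a-5p came to 0.036%, 0.034% and 0.057% of miR-29a-3p in WT and to 0.075%, 0.044% and 0.035% in Dicer1-ifKO, with overlap (exact permutation p = 0.6, adjusted p = 0.70). Its log2 ratio, 0.24 higher in Dicer1-ifKO, was -0.08 without Dicer1-ifKO replicate 1. Among 129 hairpins with at least 10 counts of each arm in every library, the ratio of the minor to the major arm was lower without overlap in 12.4% and higher in 21.7%. The median difference of these ratios was -0.01 on the log2 scale. The 129 include the family's 3 and are not all separate measurements. Mir24-2 and Mir3074-2 had the same difference (0.59), as had Mir219a-1 and Mir219c (-0.51). In the family 2 of 3 ratios were lower without overlap.

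**Figure D4:**
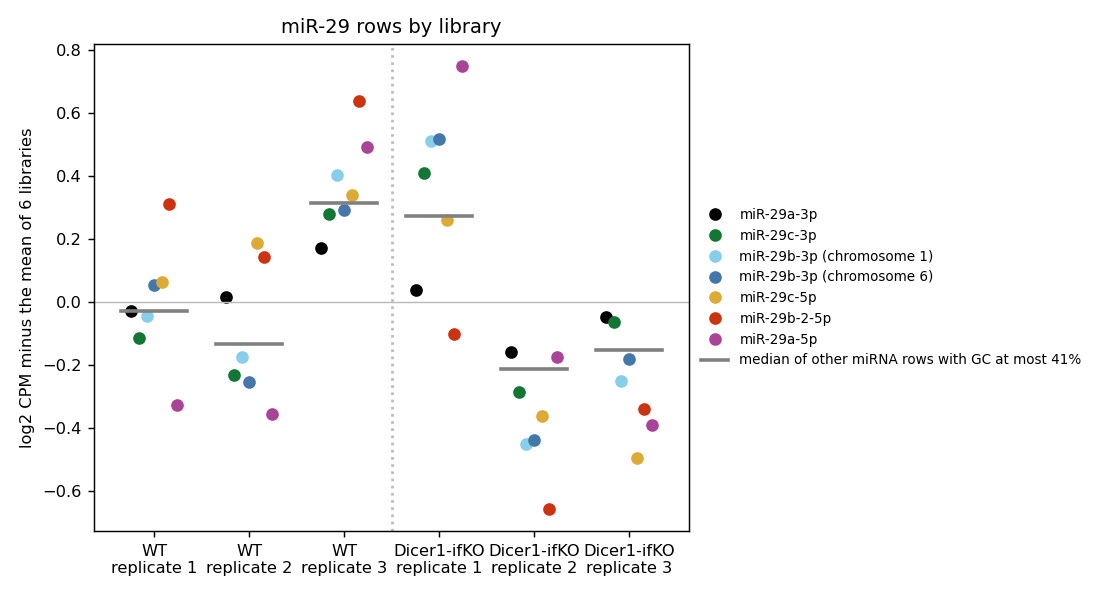
Deviation of each tested miR-29 row from its mean over the 6 libraries, in log2 CPM. Grey bars are the median of 121 other miRNA rows with a GC content of at most 41%. WT replicate 3 has every miR-29 row above 0 and Dicer1-ifKO replicates 2 and 3 have every row below 0, while Dicer1-ifKO replicate 1 has all rows but miR-29b-2-5p above 0.

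Libraries of 1 genotype differed for the family and for other miRNAs, both of low and of higher GC content. The 3p arms have a GC content of 34.8% for miR-29b-3p, 36.4% for miR-29c-3p and 40.9% for miR-29a-3p. The 121 other tested miRNA rows with a GC content of at most 41%, a split chosen after the values were seen, had median deviations from their 6-library means of -0.03, -0.13 and 0.32 log2 units for WT and 0.27, -0.21 and -0.15 for Dicer1-ifKO. miR-29c-3p deviated by -0.11, -0.23 and 0.28 for WT and by 0.41, -0.29 and -0.06 for Dicer1-ifKO. WT replicate 3 and Dicer1-ifKO replicate 1 were the high libraries of both. The 344 rows of higher GC content were at -0.001, 0.14 and 0.33 for WT and at -0.07, -0.24 and -0.18 for Dicer1-ifKO. WT replicate 3 was the highest library there too, while Dicer1-ifKO replicate 1 lay below 0. The part of GC content in the miR-29 values was not tested beyond the trend removed next. With a GC trend of the miRNA rows removed, an alternative added after the data were seen, the log2 changes were -0.22 for miR-29a-3p, -0.14 for miR-29c-3p and -0.25 and -0.32 for the chromosome 6 and 1 rows of miR-29b-3p. In that fit 7 of 7 rows lay below 0, the median of all tested miRNA rows was -0.25, and 0 of the 7 were called (edgeR).

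By a rule set on likeness, the tested miRNA rows whose log2 CPM over the 6 libraries was most like that of miR-29a-3p were miR-125b-2-3p (Pearson's r 0.999), miR-666-3p (0.987), miR-152-3p (0.97), miR-148a-3p (0.97) and miR-411-5p (0.97). They are the top 5 of 321 rows with a mean of at least 100 counts, libraries and scaling are shared by all rows, and these values are a description. The log2 changes of these 5 ran from -0.25 to -0.18. The other members had r of 0.61 to 0.86 with miR-29a-3p. Abundant rows of other families stood at log2 changes of -0.42 for miR-26a-5p, -0.35 for let-7c-5p and -0.13 for miR-30d-5p, and the neuronal miR-124-3p and miR-9-5p at -0.01 and 0.02. None of these 5 passed, and their difference from miR-29a-3p was not tested. For each, 1 row was used, out of 2 rows for miR-26a-5p and let-7c-5p and 3 for miR-124-3p and miR-9-5p.

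Markers of the cell types in the tissue were measured beside the family. The 6 astrocyte-enriched miRNAs outside miR-29 (miR-26a-5p, miR-26b-5p, miR-23a-3p, miR-23b-3p, miR-27a-3p and miR-27b-3p) summed to 8050 to 9986 CPM in WT and 6365 to 7322 CPM in Dicer1-ifKO. Of their 7 tested rows 0 were called by edgeR in either direction and 4 lay below 0, with a median log2 change of -0.25. Of the 2 rows of miR-26a-5p, that on chromosome 9 was at 3493 ± 418 CPM for WT against 2608 ± 177 CPM for Dicer1-ifKO (SD, n = 3 each). Both rows enter the sum, a large part of which is thus this miRNA. The lower sum in Dicer1-ifKO does not stand for all 6 miRNAs, since the tested rows went in both directions. The 10 neuronal miRNAs summed to 3340 to 4292 and 2774 to 3572 CPM, and 2 of 20 rows fell and 0 rose (edgeR), where 6.59% of the tested miRNA rows and 0.795% of all tested features were lower. Of these 20 rows 13 lay below 0, with a median log2 change of -0.05. The 20 rows are loci of the 10 miRNAs, and rows of 1 miRNA are not separate measurements. Those of microglia and leukocytes summed to 162 to 199 and 200 to 227 CPM, of oligodendrocytes to 218 to 340 and 257 to 350 CPM, of vessels to 359 to 589 and 455 to 617 CPM, and of erythrocytes to 109 to 120 and 97.2 to 116 CPM, with 0 rows called in each by edgeR. The median log2 changes of these 4 lists were 0.21 (0 of 4 tested rows below 0), 0.16, 0.12 and -0.13. No marker miRNA of these lists was at 0 over all libraries. The part of cell make-up in the miR-29 values was not tested.

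The genes that make and use miRNAs gave few fragments in these libraries, which measure no mRNA. The list held 24 gene symbols, among them Drosha and Dgcr8, which cut the primary transcript. It also held Xpo5, which exports the hairpin, Dicer1, and Tnrc6a, which works with Argonaute proteins. Ago1, Ago2, Ago3, Ago4, Tut4 and Tut7 had no match by symbol, so no Argonaute gene was covered under these symbols. Tut4 and Tut7 are other symbols of Zcchc11 and Zcchc6, which the list also held and which were matched. In all, 18 symbols were matched, and 9 of them had a span that could be tested. Of these 9, 0 were lower and 0 higher (edgeR, lowest adjusted p 0.86), with a median log2 change of -0.03. Over all tested features 0.795% were lower and 0.0153% higher. Dgcr8 had a log2 change of -0.33 ± 0.22 (SE) and Dicer1 of -0.24 ± 0.24 (SE).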

How the data were processed

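Libraries were prepared with Illumina's small RNA TruSeq kit, per the labels. Each deposited file holds unscaled read counts per feature. Its other value column, deposited as a normalized signal, equals those counts times 1 constant per library (0.89 to 1.14) and served only for alternative size factors. Tools and builds in the submitters' processing notes, with no role stated, are BWA, DESeq2, CASAVA 1.8.2, SAMtools 0.1.18, GRCm38 and mm10. How features were counted, whether strand was used and how reads with several matches were treated is not given in the sources used here.

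Summed feature counts were 55101387 to 77428956 per library. Rows of 1 gene with identical counts were kept once (13503 removed). The test was edgeR 4.0.16 in R 4.3.3 (filterByExpr, minimum count 10, TMM, robust glmQLFit, glmQLFTest, two-sided) over 6539 features, with Benjamini-Hochberg adjustment and a threshold of 0.05. Standard errors came from the F statistic. Pearson's r used log2 CPM with a prior count of 2. Scripts were tested on simulated data. Ratios were tested by exact permutation of the 6 libraries, and that of miR-29a-3p to other miRNAs was added after the data were seen. DESeq2 1.42.0, other scalings, no filter, summed loci, a replicate block, a GC trend removed by loess (span 0.75, GC known for 472 of 546 rows) and leaving out each library were alternatives. Named rows were all members, 5 comparators and the 5 miRNA rows most like miR-29a-3p. The members and lists were chosen with earlier results of these data known. No pair of libraries matched within counting error, so each counted once.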

Additional observations from a re-analysis of the deposited data

How the results depend on the processing

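Under all alternatives run, 0 of the 7 tested miR-29 rows were called, while the number of all miRNA rows called (36, all lower) was 16 on library totals, 8 with TMM of the miRNA rows, 3 with the replicate block, 47 in the fit of miRNA rows alone and 1 to 70 with a library left out. The log2 changes of miR-29b-2-5p and miR-29c-5p stayed below 0 in every alternative. With TMM of the miRNA rows 2 of 7 rows lay below 0 (5 in the main result), and the log2 changes were 0.13 for miR-29a-3p and 0.14 and 0.20 for the chromosome 1 and chromosome 6 rows of miR-29b-3p. The fit of miRNA rows alone also gave 2 of 7, with 0.13, 0.14 and 0.20. The chromosome 6 row of miR-29b-3p, at -0.03 in the main result, was at 0.020 with DESeq2 size factors, 0.031 on library totals, 0.018 with the size factors of the authors, 0.019 with DESeq2 and 0.023 without a count filter. With the GC trend removed, miR-29c-3p was at -0.14 and miR-29a-5p at -0.043. The cause of these shifts was not tested. The family's share of miRNA counts was 1.09 times WT in Dicer1-ifKO, and its share of all feature counts 0.97 times.

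Leaving out 1 library at a time gave log2 changes of -0.16 to -0.0011 for miR-29a-3p, -0.17 to 0.27 for miR-29c-3p, -0.44 to 0.15 and -0.36 to 0.19 for miR-29b-3p on chromosomes 1 and 6, and -0.29 to 0.55 for miR-29a-5p, and 3 to 7 rows below 0. The differences in log2 ratio ran from -0.22 to 0.16 for miR-29b-3p to miR-29a-3p and from -0.079 to 0.48 for miR-29a-5p to miR-29a-3p. Same-numbered libraries did not deviate together over all features (r -0.18, 0.08 and -0.16 for numbers 1, 2 and 3), and not every library correlated best with its own number, so the number was not taken as a pairing. With the replicate block miR-29a-3p was at -0.11 and miR-29b-2-5p at -0.80. Counts of 15 to 51 per library limit the 5p arms that were tested.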
